A study of Mus musculus with 2 samples.

Results

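Macrophage integrin subunits are described here through 10 genes, Itgam, Itgal, Itgb2, Itga4, Itga5, Itga6, Itgav, Itgb1, Itgb3 and Itgb5. They were chosen by gene name, and the array carried 19 probes for them out of 55681 non-control probes. All 19 were well above background on both arrays, so all 10 genes are among the 12406 named genes measured on both. The tested cells were bone marrow-derived macrophages of genotype c-Maf-/-, which lack the transcription factor c-Maf (gene Maf), and they were compared with c-Maf+/- macrophages, which keep 1 working copy. Both had been grown from mouse marrow for 5 days in medium of the CMG14-12 line as the source of M-CSF, the growth factor of macrophages, and both had received LPS, which activates Toll-like receptor 4, at 100 ng/ml for 5 h. No unstimulated cells and no c-Maf+/+ cells were measured. Strain, age, the design of the deleted allele and the number of mice behind each preparation are not given in the sources used here.

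With 1 array of 1 colour for each genotype, both on 1 slide, genotypes could not be tested, and each difference compares 1 array with 1 array. Position on the slide and genotype cannot be told apart. Maf itself went with the labels: its brighter probe read 12.6 in c-Maf-/- cells, not well above background, against 15101 in c-Maf+/- cells, at least 636-fold lower. The share of non-control spots detected above background was 44.9% for c-Maf-/- and 45.3% for c-Maf+/- cells. The macrophage label was checked on 13 marker genes, all of them measured on both arrays, with a median log2 difference of -0.03 (0.10 with spike-in scaling). Csf1r, the M-CSF receptor gene, read 37597 in c-Maf-/- and 36734 in c-Maf+/- cells, and Adgre1, which encodes F4/80, had 28722 in c-Maf-/- and 36727 in c-Maf+/- cells. Among these markers Cd33 (0.98), Aif1 (-0.61), Lyz2 (0.58) and Fcgr1 (-0.58) lay farthest from 0.

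Integrins are cell-surface receptors made of an alpha and a beta chain, and a chain reaches the surface only as a pair. Itgb2 encodes the beta chain of the leukocyte integrins, which pairs with the products of Itgam (CD11b, in the complement receptor CR3) and Itgal (CD11a, in LFA-1). Itgb1 encodes the beta chain shared by alpha-4, which binds VCAM1 and fibronectin, alpha-5, the classic fibronectin receptor chain, and alpha-6, a laminin receptor chain. Itgav encodes alpha-V, which pairs with beta-3 or beta-5, among others, to bind vitronectin, osteopontin and bridging proteins on apoptotic cells. The short cytoplasmic tails of beta chains are bound by talin and kindlin, which switch integrins on.

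The probes were 60 bases long, and 2 of them, 1 in Itga4 and 1 in Itgb1, covered a genomic span longer than the probe and therefore crossed an exon junction. These 2 are shown whole, since they read spliced messenger RNA. In the Itgb1 probe the capitals mark 2 runs of codons for the NPXY motif of integrin tails, starting at bases 13 and 49 counted from its 5′ end. Talin is known to bind the NPXY motif nearer the membrane and kindlin the one nearer the end of the chain, so the probe reads the part of the message that encodes both docking sites.
Itgb1, chr8:131250081-131255976, mm9, plus strand: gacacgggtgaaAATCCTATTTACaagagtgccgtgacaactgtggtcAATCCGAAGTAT
Itga4, chr2:79153985-79155115, mm9, plus strand: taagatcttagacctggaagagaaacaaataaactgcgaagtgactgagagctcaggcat

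For the members farthest from 0, or whose probes gave unlike differences, the first 30 bases of each probe are shown, without capitals, as the identity of what was measured. All lie on the plus strand of mm9, and positions within exons or untranslated regions are not stated, since no mm9 annotation was used here.
Itga6 upstream probe, chr2:71690633-71690692: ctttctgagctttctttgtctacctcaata
Itga6 downstream probe, chr2:71694756-71694815: gagaatgagaacctgggaggtcttgttgtt
Itgb3 upstream probe, chr11:104528625-104528684: acttatgtgtgtgacgagtgtggggaaatg
Itgb3 downstream probe, chr11:104531672-104531731: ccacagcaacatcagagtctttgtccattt
Itgb5 probe, chr16:33949123-33949182: gccagacaagaaggtatccggaagagtctg

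Integrin subunit messages differed little between the genotypes. None of the 10 genes was 2-fold higher or lower in c-Maf-/- macrophages, against 3.16% of all 12406 genes (1.43% higher, 1.73% lower). At so low a share over all genes, a count of 0 among 10 says little about integrins. Their log2 differences, c-Maf-/- minus c-Maf+/- after each array was scaled on its 75th percentile, ran from -0.52 for Itgb5 to 0.35 for Itgal, with a median of 0.12 where all genes had a median of -0.02. Of the 10 genes, 7 had a value above 0 (46.3% of all genes) and 3 below 0 (53.7% of all genes), and 1 of the 7, Itgb1, was at 0.00 with a sign that turned under other settings. All 10 lay between the 5th and 95th percentile of all genes, -0.66 and 0.61. In bulk RNA, fewer cells of a type and less RNA per cell cannot be told apart.

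**Figure D1:**
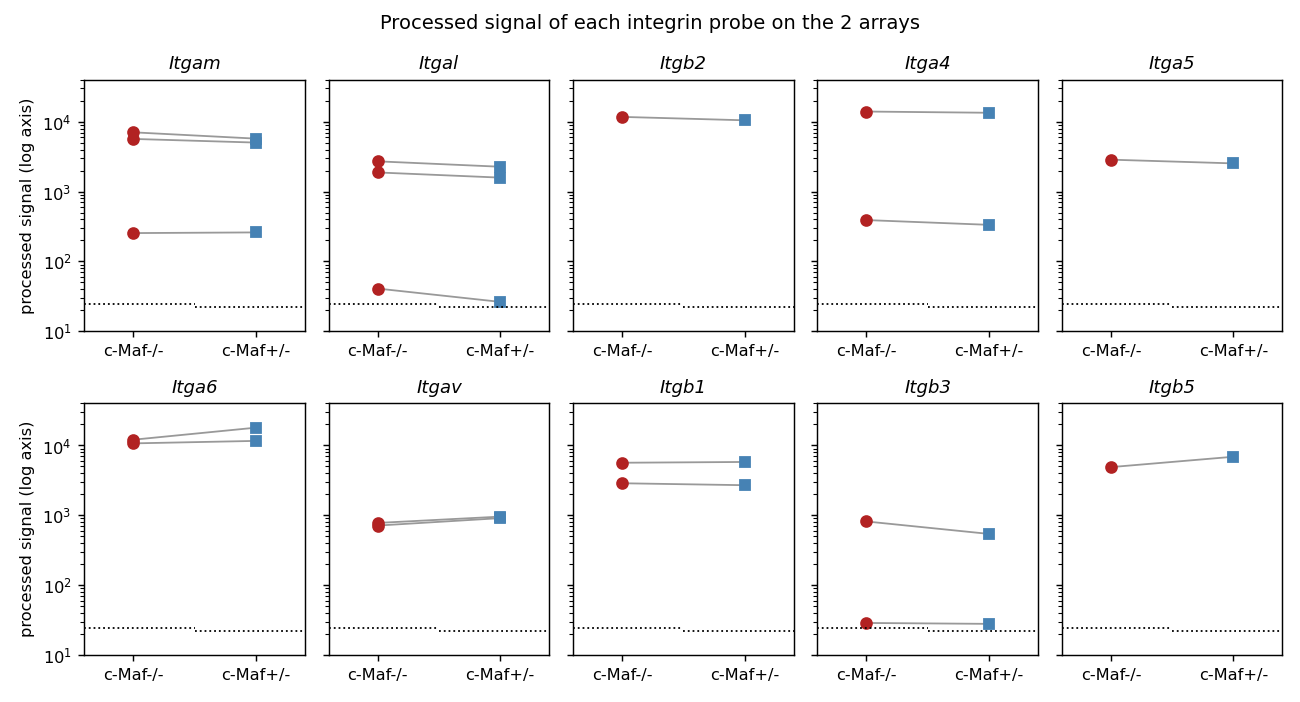
Processed signal (arbitrary scanner units, log axis) of each of the 19 integrin probes in c-Maf-/- (red circles) and c-Maf+/- macrophages (blue squares), with a line joining the values of 1 probe and a dotted line at the lowest signal well above background on that array (24.2 in c-Maf-/-, 22.3 in c-Maf+/-). Lines are close to level, and 1 probe each of Itgal and Itgb3 lies near the dotted line.

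Each integrin probe was printed as 1 spot per array, so its own measured error is not available. The scanner software attached an error of its model to each signal, which is set mainly by a fixed 10% multiplicative term, and which gave a log2 difference an error of 0.20 to 0.21 for 17 probes and more for the other two. Measured repeatability within the arrays was tighter at the median, but not throughout. For 211 non-control probes with at least 8 usable spots, the SD between spots had a median of 0.06 and a 95th percentile of 0.22. For 3452 genes with at least 2 probes, the SD between probes had a median of 0.09 and a 95th percentile of 0.48. Among the members it ran from 0.04 for Itgav to 0.39 for Itgb3. These spreads describe the arrays and not mice or cultures. Of the 19 integrin probes, 10 lay within 1 model error of 0, and 3 lay more than 2 model errors away, the single Itgb5 probe, the downstream Itga6 probe and the downstream Itgb3 probe. Of 7 members with several probes, 5 had all probes of 1 sign, the exceptions being Itgam and Itgb1.

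**Figure D2:**
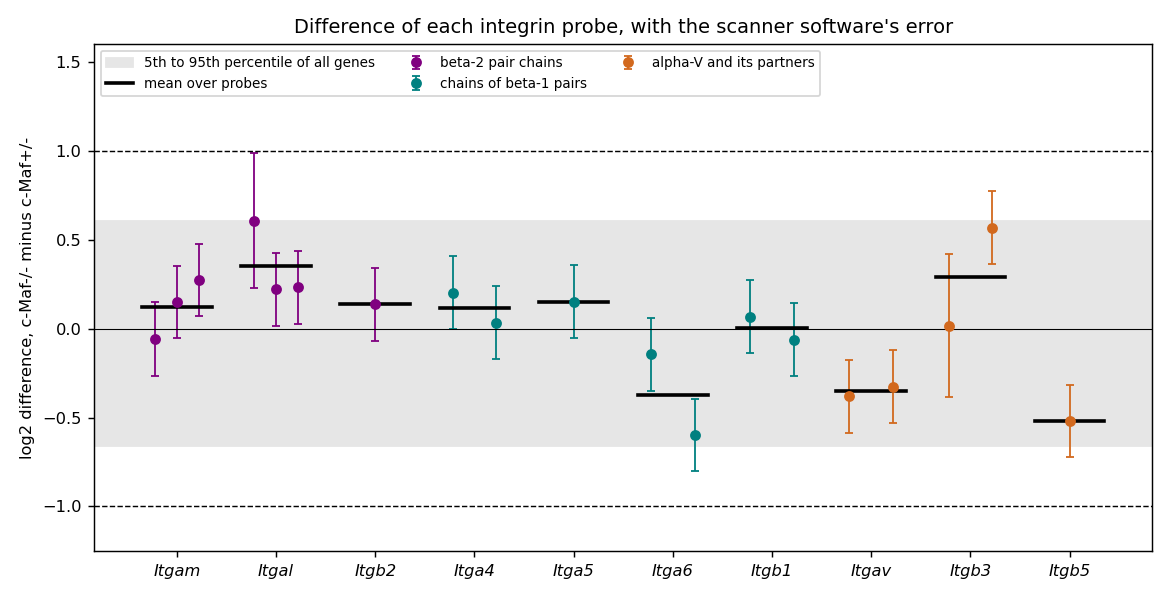
Log2 difference, c-Maf-/- minus c-Maf+/-, of each integrin probe (points, coloured by the pairs their chains form, bars showing the scanner software's model error) and of each gene (black line, mean over probes), with the 5th to 95th percentile of all genes in grey and the 2-fold limits dashed. The 3 genes whose mean lies clearly below 0 are Itga6, Itgav and Itgb5, and every point lies inside the 2-fold limits.

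The leukocyte integrin chains among the members, Itgam, Itgal and Itgb2, were slightly higher in c-Maf-/- macrophages, by amounts within or close to the error. Itgax, a chain of the same family outside the members, was lower (-1.09, -0.77 with normexp) and is given below. Itgb2, on chromosome 10, read 11745 in c-Maf-/- and 10497 in c-Maf+/- cells, a log2 difference of 0.14 with a model error of 0.20 from its single probe. For Itgam, on chromosome 7, the downstream probe gave 7061 in c-Maf-/- and 5736 in c-Maf+/- cells (0.27), and the middle probe 5679.9 in c-Maf-/- and 5035 in c-Maf+/- cells (0.15). The upstream Itgam probe was at 254 in c-Maf-/- and 260.2 in c-Maf+/- cells (-0.06, which turned to 0.08 with spike-in scaling). CD11b with the shared beta chain thus differed by a mean of 0.12 for Itgam (SD 0.17 over 3 probes) beside 0.14 for Itgb2, and 63.8% and 60.4% of all genes lay at least as far from 0.

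Itgal, whose product is the alpha chain of LFA-1, had the highest mean of the 10 genes at 0.35 (SD 0.22 over 3 probes). Its downstream pair of probes gave 2711 in c-Maf-/- against 2269.5 in c-Maf+/- cells (0.23) and 1879 in c-Maf-/- against 1585 in c-Maf+/- cells (0.22). The third probe, designed on a cDNA clone, was dim, at 40.8 in c-Maf-/- and 26.3 in c-Maf+/- cells, and its difference of 0.61 carried a model error of 0.38. That dim probe raised the mean: with normexp background correction its value was 0.22 and the Itgal mean 0.21. Lymphocytes also express Itgal, and of 12 lymphocyte markers 5 were measured on both arrays, with signals summing to 4069.9 in c-Maf-/- and 4685 in c-Maf+/- cells. Those farthest from 0 were Lck (-0.94), Cd79b (0.52, 0.26 with normexp), Cd79a (-0.33, but 0.15 without the filter on dim probes) and Cd3e (0.19), while Cd3d, Cd2 and Ms4a1, among others, were not well above background on either array. The part of these cells in the Itgal value was not tested.

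Neutrophils carry abundant CD11b, and their markers went both ways. Of 15 neutrophil markers 12 were measured, 9 below 0 (53.7% of all genes) and 3 above (46.3% of all genes). Their median was -0.63, and their signals summed to 178263 in c-Maf-/- and 197854 in c-Maf+/- cells. The farthest from 0 were Ngp (-1.45), Ltf (-1.41), Prtn3 (-1.31) and Mpo (-1.21), and with normexp Prtn3 was at -0.72 and Mpo at -0.82. The 3 above 0 were Mmp8 (0.46), Lcn2 (0.36) and Csf3r (0.13), and Lcn2 made up most of the c-Maf-/- sum, at 93371.5 in c-Maf-/- and 71434 in c-Maf+/- cells. Retnlg and Cxcr2 were not well above background on either array. Their part in the Itgam and Itgb2 values was not tested.

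Among the chains of beta-1 integrins, Itgb1 was level and Itga6 lower in c-Maf-/- macrophages. Itgb1, on chromosome 8, had 5657 in c-Maf-/- and 5804 in c-Maf+/- cells at the junction probe over the NPXY codons (-0.06), and 2875 in c-Maf-/- and 2697 in c-Maf+/- cells at the other probe (0.07). The mean of 0.00 (SD 0.09 over 2 probes) was the closest to 0 of the 10 genes, and 99.3% of all genes lay at least as far away.

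Itga4 and Itga5 stayed within the model error. The Itga4 junction probe shown above had 391 in c-Maf-/- and 334 in c-Maf+/- cells (0.20), and the other Itga4 probe, at chr2:79173193-79173252, had 14011 in c-Maf-/- and 13456 in c-Maf+/- cells (0.03). Itga5, on the minus strand of chromosome 15, had 2865 in c-Maf-/- and 2534 in c-Maf+/- cells (0.15). For the fibronectin receptor pair the values were thus 0.15 for the alpha chain and 0.00 for the beta chain.

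Itga6 showed a larger drop at one probe than at the other. The downstream probe, assigned in the files to RefSeq transcript variant 1, read 12084 in c-Maf-/- and 17982 in c-Maf+/- cells, 1.51-fold lower, a log2 difference of -0.60. The upstream probe, assigned to an Ensembl transcript, had 10712 in c-Maf-/- and 11629 in c-Maf+/- cells, a difference of -0.14. Both probes were bright, and the gap between them was 0.45. Among 2804 genes with exactly 2 measured probes the median gap was 0.12, and 11.9% had a gap at least as large. The mean for Itga6 was -0.37 (SD 0.32 over 2 probes), and with spike-in scaling the upstream probe lay at -0.01. Which transcript forms each probe reads was not settled.

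While beta-1 was level, the other beta chains of alpha-4 and alpha-6 read lower in c-Maf-/- macrophages, the latter from a dim probe. Itgb7, which pairs with alpha-4 in a gut-homing receptor, had 7192 in c-Maf-/- and 10068 in c-Maf+/- cells (-0.51), so the alternative beta chains of alpha-4 stood at 0.00 and -0.51. Itgb4, the hemidesmosome chain that pairs only with alpha-6, was dim, at 37.6 in c-Maf-/- and 52.2 in c-Maf+/- cells (-0.50, but -0.16 with normexp).

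Alpha-V and beta-5 were lower in c-Maf-/- macrophages, and beta-3 was not. Itgav had 712 in c-Maf-/- and 910.4 in c-Maf+/- cells at its upstream probe (-0.38), and 777 in c-Maf-/- and 957 in c-Maf+/- cells at its downstream probe (-0.33). The probes of Itgav agreed within an SD of 0.04 around a mean of -0.35, a 1.28-fold lower value. Itgb5, on chromosome 16, had 4897 in c-Maf-/- and 6894 in c-Maf+/- cells, 1.43-fold lower (-0.52, model error 0.20), and 14.8% of all genes lay at least as far from 0. No other member was as far from 0, under the scaling used here.

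Itgb3 is known as the beta chain of the osteoclast and platelet vitronectin and fibrinogen receptors. Its downstream probe read 815 in c-Maf-/- and 541 in c-Maf+/- cells, 1.48-fold higher (0.57), while the upstream probe sat near the detection limit with 28.7 in c-Maf-/- and 27.8 in c-Maf+/- cells (0.02, model error 0.40). The gene mean of 0.29 (SD 0.39) therefore rests on the downstream probe, and a gap of this size was found in 8.52% of 2-probe genes. The alpha-V partners thus lay at 0.29 for Itgb3, -0.52 for Itgb5, 0.00 for Itgb1 and -0.23 for Itgb8, the beta chain of a receptor that activates latent TGF-beta.

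Platelet and osteoclast markers are given beside Itgb3, since those cells express it. Of 12 platelet and megakaryocyte markers 11 were measured, with a median of 0.53 and signals summing to 58595 in c-Maf-/- and 59812 in c-Maf+/- cells. Pf4 made up most of both sums, at 56215 in c-Maf-/- and 58067 in c-Maf+/- cells, and Gp5 was not well above background on either array. Gp6 (1.04), Selp (-1.04) and Gp9 (0.91) were farthest from 0, but dim, and with normexp they stood at 0.54, -0.71 and 0.50, none past 2-fold, with a list median of 0.27 (0.28 without the filter on dim probes). Beside them, Itga2b, the platelet partner of beta-3, had 118 in c-Maf-/- and 79.9 in c-Maf+/- cells (0.53, 0.34 with normexp). Of 11 osteoclast markers 9 were measured, with a median of -0.42 and signals summing to 14784 in c-Maf-/- and 17069 in c-Maf+/- cells. Of these, 6 were below 0 (53.7% of all genes) and 3 above (46.3% of all genes). Car2 (-2.29), Atp6v0d2 (-0.87), Tnfrsf11a (-0.85) and Dcstamp (-0.85) were farthest from 0. The 3 above 0 were Acp5 (0.60), Ctsk (0.24) and Nfatc1 (0.04, with probes of opposite sign). Calcr was well above background in c-Maf-/- cells only, at least 2.42-fold higher. Mmp9 had the same flags but read 41.5 in c-Maf-/- and 43.3 in c-Maf+/- cells, so it was not higher in c-Maf-/- cells. With normexp Car2 was at -1.54, Atp6v0d2 at -0.49 and Dcstamp at -0.38, and the list median was -0.23 without the filter. The part of either cell type in the Itgb3 value was not tested.

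**Figure D3:**
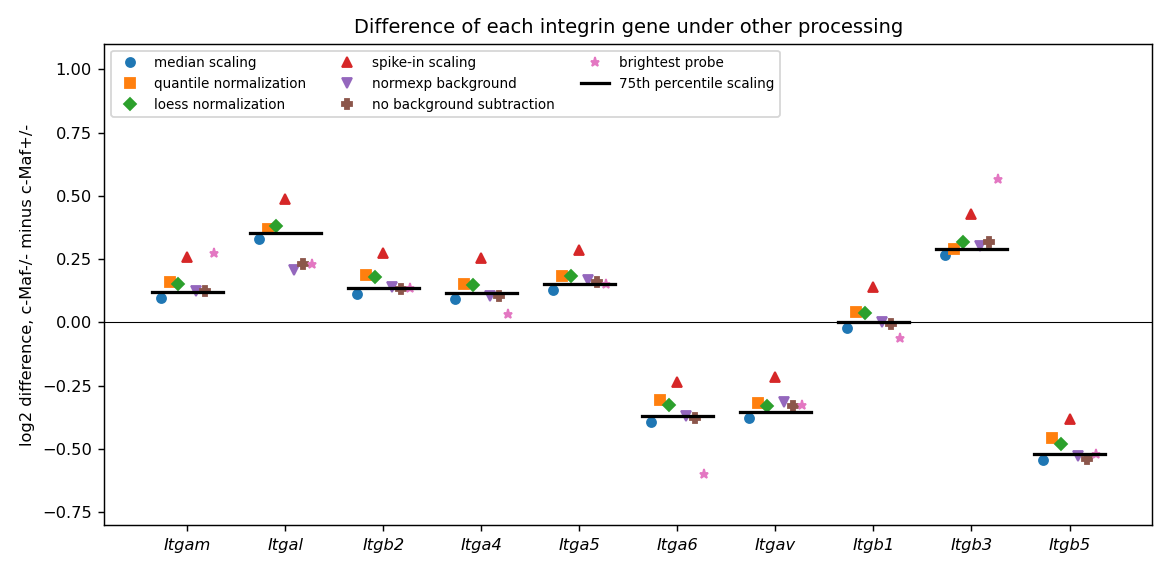
Log2 difference, c-Maf-/- minus c-Maf+/-, of each integrin gene with 75th percentile scaling (black line) and under 7 of the alternative settings (symbols). Itga6, Itgav and Itgb5 lie below 0 under all of those drawn, Itgb1 lies on both sides of 0, and the other members lie above 0.

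The scaling moved all members together. Spike-in transcripts differed by -0.14 after 75th percentile scaling, so scaling on them shifted every gene up by 0.14, to 0.11 for the median of all genes, 0.26 for the median of the members and -0.38 for Itgb5. Relative to the median of all genes, Itgb5 stood at -0.50, Itga6 at -0.35, Itgav at -0.33, Itgb3 at 0.31 and Itgal at 0.37. Under all 9 alternatives Itga6, Itgav and Itgb5 stayed below 0 and Itgam, Itgal, Itgb2, Itga4, Itga5 and Itgb3 above 0, while Itgb1 was below 0 under 3.

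Promoters were available for 6 of the 10 genes (RefSeq, build GRCm38.p6) and were read over the 250 bases before the start. c-Maf is known to bind the MARE, and its core TGCTGAC, on either strand, was in none of the 6 windows and in 3.81% of all 32851 promoter windows. The Itgam window is shown because PU.1, encoded by Spi1, is known to drive CD11b in myeloid cells. Its capitals mark GAGGAA, the core that PU.1 binds, found on either strand at 84 and 15 bases before the start, a motif in 4 of the 6 member windows and 23.2% of all windows. Spi1 had a log2 difference of 0.05.
Itgam, chr7:128062390-128062639, GRCm38.p6, plus strand: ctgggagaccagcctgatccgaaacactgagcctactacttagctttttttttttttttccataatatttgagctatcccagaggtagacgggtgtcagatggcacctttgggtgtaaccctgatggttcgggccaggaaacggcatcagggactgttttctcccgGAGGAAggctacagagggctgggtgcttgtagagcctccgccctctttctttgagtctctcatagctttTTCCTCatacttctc

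Outside the 10 members, 18 other integrin and integrin-like genes were on the array and 8 were measured on both arrays, with a median of -0.25. Itgax, which encodes CD11c, the third alpha chain of the beta-2 family to be measured, was the only one past 2-fold (3.16% of all genes). It read 131 in c-Maf-/- and 274.5 in c-Maf+/- cells (-1.09). It lay within 2-fold with spike-in scaling (-0.96) and normexp (-0.77). CD11c is also a dendritic cell marker, and of 13 such markers 8 were measured, with a median of -0.75 (-0.46 with normexp, -0.55 with the brightest probe and -0.26 without the filter on dim probes) and signals summing to 46578 in c-Maf-/- and 44737 in c-Maf+/- cells. Siglech made up most of both sums, at 43949 in c-Maf-/- and 41554 in c-Maf+/- cells. Fscn1 (-1.50), Itgax, Bcl11a (-1.06) and Batf3 (-0.89) were farthest from 0, but with normexp Bcl11a was at -0.55, Batf3 at -0.48 and Fscn1 (-1.06) was the only one past 2-fold. Xcr1, Cd209a and Dpp4 were not well above background on either array. Their part in the Itgax value was not tested. Itga9 (-0.27), Itga8 (-0.05, but 0.08 with spike-in scaling) and Itga1 (0.03, and -0.12 without the filter on dim probes) lay nearer 0. Itga10 was well above background in c-Maf-/- cells only, at least 1.26-fold higher. The remaining 9, among them Itga2, Itga3, Itgad and Itgae, were not well above background on either array.

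Most measured cell-surface ligands of these integrins lay lower in c-Maf-/- macrophages. Of 10 measured genes 8 were below 0 (53.7% of all genes), with a median of -0.28, and 1 was past 2-fold (3.16% of all genes). That one was Vcam1, the ligand of alpha-4 integrins, whose 2 probes averaged 487 in c-Maf-/- and 1146 in c-Maf+/- cells, 2.47-fold lower (-1.31, SD 0.08 over probes). F11r, which encodes the junction protein JAM-A, a ligand of LFA-1, had 2979.9 in c-Maf-/- and 5279 in c-Maf+/- cells (-0.85). Icam1, a ligand of both LFA-1 and CR3, had 3709.7 in c-Maf-/- and 5528 in c-Maf+/- cells (-0.60), and Icam2 stood at -0.28. Madcam1, the ligand of alpha-4 beta-7, was dim and higher (0.49, but -0.41 without the filter on dim probes), and Jam2 was at 0.01 with probes of opposite sign. Cd47 stood at -0.09, but at 0.05 with spike-in scaling. Stromal and endothelial cells also carry such ligands, and 6 of their 12 markers were measured, with a median of -0.36 (-0.17 with the brightest probe or without the filter) and signals summing to 4879.9 in c-Maf-/- and 4923 in c-Maf+/- cells. Dcn (-0.95, -0.66 with normexp), Col1a1 (-0.88, -0.54 with normexp), Kdr (-0.40) and Col1a2 (-0.32) were farthest from 0. Kdr, whose 2 probes stood at -0.95 and 0.15, made up most of both sums, at 4238 in c-Maf-/- and 4074 in c-Maf+/- cells. Lum, Pdgfra and Tek were not well above background on either array. Cdh5 and Col3a1 were well above background in c-Maf+/- cells only, at least 2.32-fold and 1.35-fold lower in c-Maf-/- cells. The part of such cells was not tested.

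Matrix and soluble ligands went both ways. Of 15 measured genes 9 were above 0 (46.3% of all genes), with a median of 0.14. Past 2-fold were 2 (3.16% of all genes), both higher. Thbs1, whose product thrombospondin-1 bridges apoptotic cells to alpha-V beta-3 and CD36, had 6424 in c-Maf-/- and 2598 in c-Maf+/- cells, 2.43-fold higher (1.28). Emilin1, an elastic fibre glycoprotein bound by alpha-4 beta-1, had 243 in c-Maf-/- and 108 in c-Maf+/- cells (1.14, but 0.81 with normexp), and Ltbp1, which tethers latent TGF-beta, was dim and at 0.55 (0.21 with normexp). On the lower side, C3, whose cleaved form iC3b is a ligand of CR3, had 34273 in c-Maf-/- and 62383 in c-Maf+/- cells (-0.89). Mfge8, which bridges apoptotic cells to alpha-V integrins, had 5032 in c-Maf-/- and 8201 in c-Maf+/- cells (-0.73), and the dim Tnc stood at -0.58 (-0.25 with normexp). For osteopontin (Spp1, 0.22) and fibronectin (Fn1, -0.07, but 0.07 with spike-in scaling) the values were small. Fbln5 was well above background in c-Maf-/- cells only (47.0, against 6.86 in c-Maf+/- cells), at least 1.98-fold higher. Fga was well above background in c-Maf+/- cells only, at least 1.29-fold lower in c-Maf-/- cells.

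**Figure D4:**
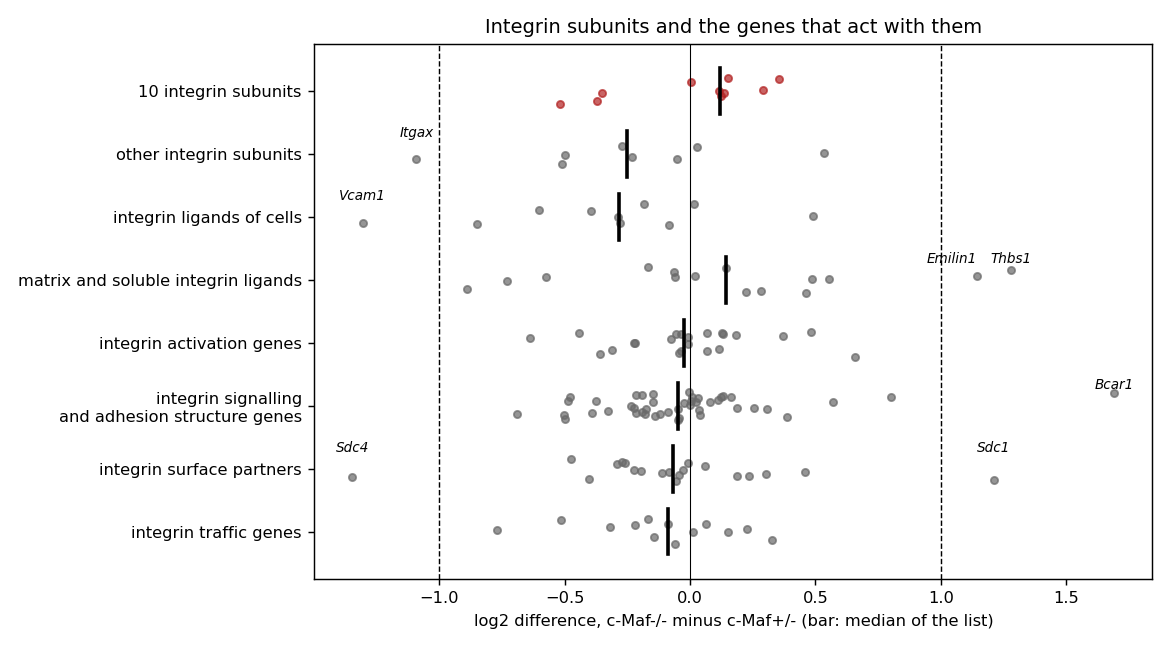
Log2 difference, c-Maf-/- minus c-Maf+/-, of the 10 integrin subunits (top, red) and of every measured gene in 7 lists of genes that act with integrins (points), with the median of each list as a bar and the 2-fold limits dashed. Outside those limits lie 7 genes, where 3.16% of all genes lie past 2-fold, and no integrin subunit of the top row does.

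Genes that act on the cytoplasmic side were mostly close to 0. Of 22 genes of integrin activation measured on both arrays, none was past 2-fold (3.16% of all genes). Above 0 were 9 (46.3% of all genes), and the median of -0.02 turned to 0.11 with spike-in scaling. Skap1 was well above background in c-Maf-/- cells only, at 1 of 3 probes (66.5, against 5.90 in c-Maf+/- cells), at least 2.92-fold higher. Tln2 was well above background in c-Maf+/- cells only, at least 1.15-fold lower in c-Maf-/- cells. Tln1, encoding talin-1, was at -0.05 and Fermt3, encoding the leukocyte kindlin, at 0.13, although Tln1 was at 0.08 with spike-in scaling. Rassf5, whose product RAPL carries Rap1 to LFA-1, was highest (0.66), followed by the Rap1 exchange factor gene Rapgef1 (0.48) and the adaptor gene Dok1 (0.37). Filip1l (-0.64, -0.28 without the filter on dim probes), the GTPase gene Rap1b (-0.44) and Krit1 (-0.36) were lowest.

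Signalling and adhesion structure genes had a median of -0.05 over 45 measured, with 18 above 0 (46.3% of all genes). That median turned to 0.09 with spike-in scaling. Bcar1, encoding the adhesion scaffold p130Cas, was the only one past 2-fold (3.16% of all genes). It read 152 in c-Maf-/- and 46.4 in c-Maf+/- cells (1.69, but 0.95 with normexp). Fgr, a Src-family kinase of myeloid integrin signalling, had 942 in c-Maf-/- and 530.3 in c-Maf+/- cells (0.80). Tns1, encoding tensin-1, was at 0.57 (-0.59 without the filter on dim probes), and the lowest were Vav3 (-0.69), Lpxn (-0.50) and Dock2 (-0.50), which encode an exchange factor, a paxillin relative and a Rac activator.

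Surface partners of integrins held 1 gene past 2-fold on each side among 20 measured (1.43% of all genes higher, 1.73% lower). Both encode syndecans, proteoglycans that join integrins at adhesion sites. Sdc4 had 9257 in c-Maf-/- and 23127 in c-Maf+/- cells, 2.54-fold lower (-1.35). Sdc1 had 921 in c-Maf-/- and 391 in c-Maf+/- cells, 2.31-fold higher (1.21). After these came the tetraspanin gene Cd9 (-0.48) and Cd44 (-0.40 over 3 probes that ran from -0.96 to -0.10, -0.24 with normexp) on the lower side, and the urokinase receptor gene Plaur (0.46) and Tspan32 (0.30) on the higher side. The list median was -0.07, and 0.07 with spike-in scaling.

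Integrin traffic genes had a median of -0.09 over 13 measured (0.05 with spike-in scaling) and none past 2-fold (3.16% of all genes). Acap1 was well above background in c-Maf+/- cells only, at least 1.82-fold lower in c-Maf-/- cells. Dab2, an adaptor that takes integrins into endocytic vesicles, had 2322 in c-Maf-/- and 3888 in c-Maf+/- cells (-0.77, but -0.33 without the filter on dim probes), followed by Rab11fip5 (-0.51) and Rab21 (-0.32). Tbc1d2 (0.33 over 4 probes that ran from -0.20 to 0.77), Rab11fip1 (0.23) and Snx17 (0.15) were highest.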

How the data were processed

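The authors deposited an intensity for each spot from Agilent Feature Extraction 10.7.3.1 (protocol GE1_107_Sep09, design 028005, build mm9), per the file headers. Its processed signal had background removed and was detrended within the array, with surrogates for low spots and no scaling between arrays, per the file headers. Deposited flags mark controls, outliers, saturation and detection. Each signal was put on the log2 scale here, less its array's 75th percentile over 59305 spots that are no controls (296 in c-Maf-/-, 291 in c-Maf+/-). Outlier spots were dropped and no spot was saturated. Values of genes are means over probes detected on both arrays, by the deposited flag. Genes detected on 1 array have a bound against the lowest signal well above background. Names came from the files, updated through RefSeq (31814 of 55681 probes matched), and counts cover matched names. The number of arrays limits the precision.

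No test was run, and 2-fold marks a call. The step that counts calls was tested on simulated data. Background correction by normexp and loess used limma 3.58.1. Members and lists (other integrins, ligands, activation, signalling, partners, traffic, and markers of macrophages, platelets, neutrophils, dendritic cells, lymphocytes, stroma and osteoclasts) were chosen with earlier results of these data known. From each list, genes past 2-fold and the 3 farthest from 0 each way are named (4 for markers). A few marker genes are not reported here. Csf1r, Adgre1, Spi1, Itga8, Itga9, Itgb8, Siglech, Pf4, Mmp8, Lcn2, Csf3r, Icam2, Spp1, Fn1, Tln1 and Fermt3 were added after their values were seen. So were Skap1, Tln2, Acp5, Ctsk, Nfatc1, Calcr, Mmp9, Cd47, Cdh5, Col3a1, Acap1, Fbln5 and Fga.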

Additional observations from a re-analysis of the deposited data

How the results depend on the processing

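None of the 10 integrin subunits was 2-fold higher or lower under any of the 9 alternatives (other scaling by median, quantile, loess or spike-ins, normexp, no background subtraction, no filter on dim probes, outlier spots kept, brightest probe). Of 90 recomputed member values, 16 moved by more than 0.09, the median SD between probes: all 10 with spike-in scaling, 4 with the brightest probe and 2, both of Itgal, with normexp (0.21) or no background subtraction (0.23). With the brightest probe Itgb3 was at 0.57, Itga6 at -0.60, Itgam at 0.27 and Itgal at 0.23. Itgb1 was below 0 with median scaling (-0.02), no background subtraction (-0.01) and the brightest probe (-0.06).

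Spike-in scaling moved the median of the members to 0.26, of other integrins to -0.11, of cell ligands to -0.15, of matrix ligands to 0.28, of activation genes to 0.11, of signalling genes to 0.090, of surface partners to 0.066 and of traffic genes to 0.049. The median of other integrins was -0.086 without the filter on dim probes, and that of cell ligands was -0.18 with normexp and -0.19 without background subtraction. The count of other integrins 2-fold lower, 1 as reported, was 0 with spike-in scaling, normexp and no background subtraction. Matrix ligands 2-fold higher numbered 1 with normexp and without background subtraction and 4 without the filter, activation genes 1 without the filter, and signalling genes 0 with normexp. Over all genes, 392 past 2-fold became 177 with normexp, 206 without background subtraction and 1756 without the filter. The causes were not tested. No paired analysis was possible because each genotype has 1 array. Signals near background limit the dim Itgal and Itgb3 probes.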
